A study of Mus musculus with 6 samples.

Results

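The nuclear-coded genes of the mitochondrial respiratory chain and of ATP synthase were described in whole mouse lung at day 14 after bleomycin, a DNA-damaging drug used to model lung fibrosis in rodents. Members were all genes whose platform symbol starts with Nduf, Sdha, Sdhb, Sdhc, Sdhd, Uqcr, Cox4, Cox5, Cox6, Cox7, Cox8 or Atp5, which gave 87 of the 12393 genes read on the array. Expression had been measured on 6 Affymetrix MOE430A arrays, 1 for each mouse. The 3 mice of the bleomycin group, D, E and F, had received bleomycin at 1 mg/kg body weight in 50 µl of saline, and the 3 mice of the saline group, A, B and C, had received saline only. All 6 are labelled as wildtype male C57BL/6J mice 8 to 10 weeks old, and nothing else was given to either group. The route is stated as oropharyngeal in one label and intratracheal in another. Trachea and major airways had been cut away before freezing, so each array reads a mixture of all remaining lung cells.

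The respiratory chain takes electrons from NADH (complex I) and succinate (complex II), passes them through ubiquinone to complex III and through cytochrome c to complex IV, and pumps protons across the inner mitochondrial membrane. Complex V, the ATP synthase, lets the protons flow back and makes ATP. Most subunits are coded in the nucleus and are needed in nearly every cell, while several complex IV subunits also have isoforms restricted to heart, muscle, testis or lung. In the lung, type 2 alveolar cells and ciliated cells are known as rich in mitochondria.

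Values are log2 expression values of RMA with quantile normalization, which summarises the probes of a probe set. A difference is bleomycin minus saline in log2 units, and a gene is said to have risen or fallen where limma's adjusted p over all probe sets was under 0.05. The array medians lay between 7.37 and 7.41. Saline B went against its label: Xist, the transcript of the inactive X chromosome, stood at 11.40 there and at 7.23 to 7.88 on the other 5 arrays, and the Y-linked Eif2s3y at 4.05 there and at 7.23 to 8.02 on the others. The medians of the members and of each complex are therefore given with and without that array, as are some other results. The gap between the 3-prime and 5-prime probe sets of Gapdh, which widens as RNA breaks, was 0.81, 0.98 and 1.10 on bleomycin D, E and F, and 1.46, 0.88 and 1.39 on saline A, B and C. For Actb it was 1.23, 1.27 and 1.04 on bleomycin D, E and F, and 1.58, 1.14 and 1.71 on saline A, B and C. Saline B thus lay with the bleomycin arrays in this measure.

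Of the 87 genes, 1 rose and 0 fell after bleomycin, where 3.70% of all genes rose and 1.90% fell. The gene that rose was Cox6b2, an isoform of complex IV. At an unadjusted p of 0.05 in limma, 16 members were higher and 0 lower, beside 11.7% and 11.0% of all genes. The differences were small and mostly of one sign: 76 of the 87 lay above 0, beside 43.0% of all genes, with a median of 0.18 against -0.04 over all genes. They ranged from -0.34 to 0.67. Without saline B the median was 0.21 and 73 members lay above 0, and without bleomycin D the median was 0.14 with 71 above 0. With quantile normalization repeated on the deposited values the median was 0.10 (0.095) with 62 above 0, and with arrays centred on cytosolic ribosomal protein genes it was 0.14 with 69 above 0.

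All 3 bleomycin arrays lay above all 3 saline arrays for 18 of the 87 genes, beside 13.3% of all genes, and below them for 0, beside 14.6%. The level of the 87 genes, taken as the mean over genes of an array's value minus the gene's saline mean, was 0.23, 0.19 and 0.10 on bleomycin D, E and F, and -0.04, 0.10 and -0.06 on saline A, B and C. Saline B, at 0.105, stood just above bleomycin F, at 0.097, so the groups overlapped. The arrays with the higher levels were those with the smaller 3-prime to 5-prime gaps, and the part of RNA integrity in the level was not tested. Members are bright: 72 of the 87 stood among the 3098 brightest genes, where the median difference over all genes was 0.03 and that of the members 0.18.

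**Figure D1:**
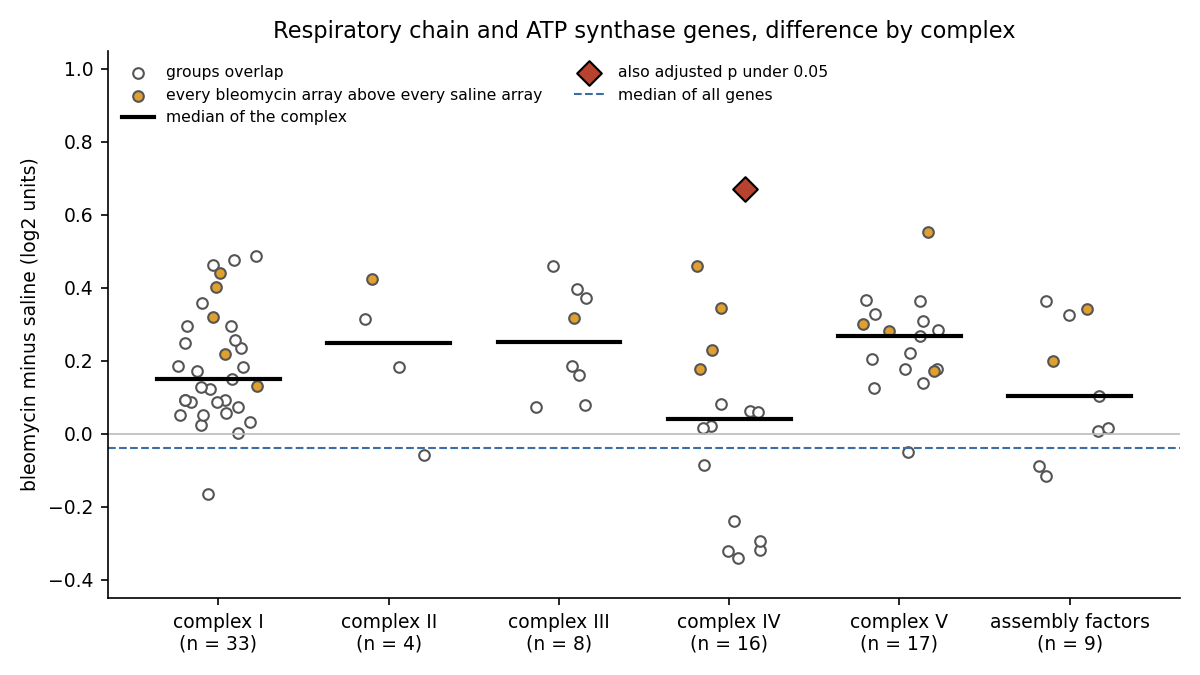
Each point is a gene, placed by its difference between bleomycin and saline (log2 units, vertical axis) in its complex (horizontal axis); black bars are medians of the complexes and the dashed line is the median of all genes, -0.04. Most genes of complexes I, II, III and V lie between 0 and 0.6, and the single diamond is Cox6b2 at 0.67.

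**Figure D2:**
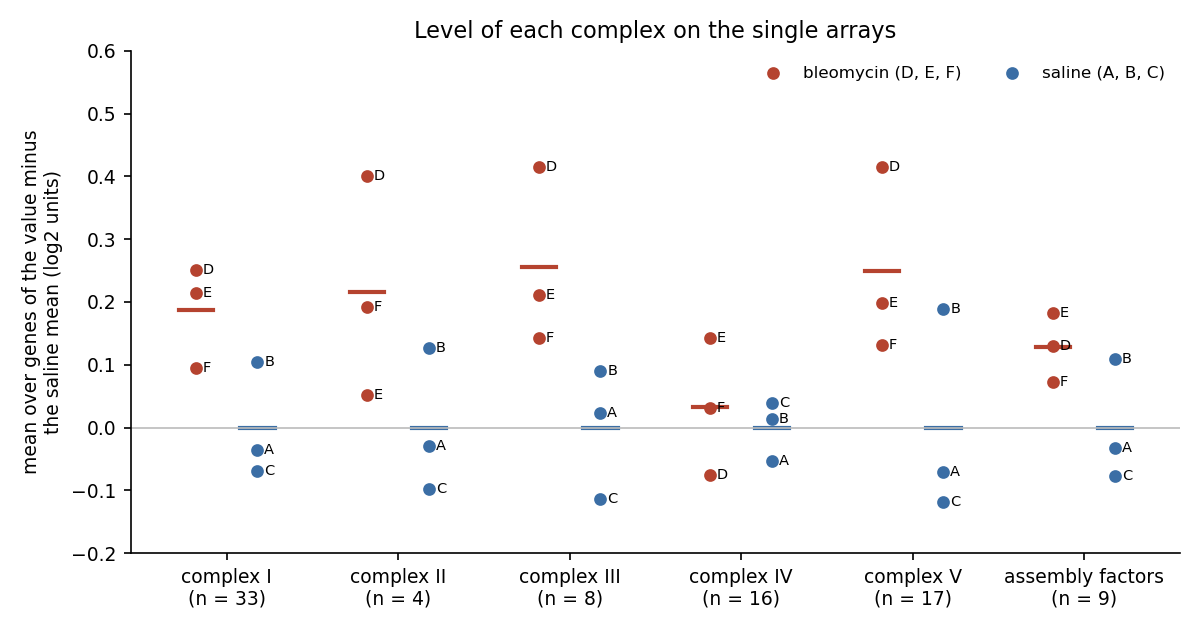
Points are the mean over the genes of a complex of the value minus the saline mean (log2 units) on each array, bleomycin left of saline, with bars at group means. Bleomycin D is the highest array in complexes I, II, III and V and the lowest in complex IV, and saline B is the highest saline array in all but complex IV.

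Complex I, which oxidises NADH, had 33 genes, of which 0 rose and 0 fell in limma. At an unadjusted p of 0.05 in limma, 5 were higher and 0 lower, beside 11.7% and 11.0% of all genes. Of the 33 genes, 32 lay above 0, and 29 without saline B. The median was 0.15, ran from 0.12 to 0.20 with 1 array left out (0.17 without saline B), and was 0.07 with quantile normalization repeated. The largest differences were in membrane-arm subunits. Ndufb2 stood at 11.43, 10.86 and 10.65 on bleomycin D, E and F, and at 10.25, 11.02 and 10.21 on saline A, B and C. Saline B exceeded both bleomycin E and F there, and the difference of 0.49 ± 0.26 (SE) had an adjusted p of 0.319. Ndufb6 stood at 10.79, 10.28 and 10.16 on bleomycin D, E and F, and at 9.69, 10.23 and 9.89 on saline A, B and C, so that saline B again lay among the bleomycin arrays (0.48 ± 0.20, adjusted p = 0.206). Ndufb1 followed with 0.46 ± 0.21 (adjusted p = 0.251).

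All bleomycin arrays lay above all saline arrays for 5 genes of complex I (15.2%), close to the 13.3% of all genes. Ndufab1, the mitochondrial acyl carrier protein that is also a subunit, stood at 10.80, 10.53 and 10.38 on bleomycin D, E and F, and at 10.05, 10.30 and 10.03 on saline A, B and C (0.44 ± 0.14, adjusted p = 0.117). The others were Ndufs4, an accessory subunit of the matrix arm (0.40), Ndufa3 (0.32), Ndufs3, a core subunit (0.22), and Ndufb9 (0.13). The dimmer probe sets of Ndufs4 differed by -0.28 and 0.06. Of subunits that carry redox centres, Ndufs8 differed by 0.26, Ndufv2 by 0.09, Ndufs7 by 0.05 and Ndufs1 by 0.03. The other 5 probe sets of Ndufs8 differed by 0.20 to 0.48, and none passed the test. Ndufv1, which binds NADH, was the only complex I gene below 0. It stood at 10.04, 10.27 and 10.03 on bleomycin D, E and F, and at 10.44, 10.13 and 10.26 on saline A, B and C, so the groups overlapped (-0.17 ± 0.13, adjusted p = 0.489).

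Complex II, the succinate dehydrogenase that also serves the tricarboxylic acid cycle, was read through all 4 of its subunits, and 0 rose or fell in limma. At an unadjusted p of 0.05 in limma, 1 was higher and 0 lower, beside 11.7% and 11.0% of all genes. The median was 0.25, with 0.33 without saline B and 0.16 without bleomycin D. The membrane anchor Sdhd stood at 11.04, 10.53 and 10.66 on bleomycin D, E and F, and at 10.22, 10.44 and 10.30 on saline A, B and C. Its groups did not overlap (0.42 ± 0.15, adjusted p = 0.149), although its second, dimmer probe set differed by -0.16. The iron-sulphur subunit Sdhb differed by 0.31, the second anchor Sdhc by 0.18 and the flavoprotein Sdha by -0.06.

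Complex III, which hands electrons from ubiquinol to cytochrome c, had 8 genes, all above 0, and 7 of them without bleomycin D. The median was 0.25, with 0.22 without saline B, 0.17 without bleomycin D and 0.16 with the mean of all probe sets of a gene. In limma 0 rose or fell (3 higher and 0 lower at an unadjusted p of 0.05, beside 11.7% and 11.0% of all genes). Uqcrfs1, the Rieske iron-sulphur protein, stood at 10.97, 10.87 and 10.76 on bleomycin D, E and F, and at 10.57, 10.50 and 10.58 on saline A, B and C. It was the 1 complex III gene of 8 (12.5%) whose groups did not overlap (0.32 ± 0.10, adjusted p = 0.13). Among all genes, 13.3% had every bleomycin array above every saline array. The small subunit Uqcrq had the largest difference, 0.46 ± 0.17 (adjusted p = 0.169), but its other 3 probe sets, which are dimmer, differed by -0.11, -0.23 and -0.30. Uqcr11 differed by 0.40, the core subunit Uqcrc1 by 0.37 and the core subunit Uqcrc2 by 0.19. The dimmer probe set of Uqcrc2 differed by -0.09. Uqcrb, the brightest of all 87 genes, differed by 0.07.

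Complex V, the ATP synthase, had 17 genes, of which 16 lay above 0, with a median of 0.27. The median was 0.34 without saline B, but 0.15 without bleomycin D, 0.16 without saline C and 0.17 with array weights. In limma 0 rose or fell (2 higher and 0 lower at an unadjusted p of 0.05, beside 11.7% and 11.0% of all genes). Atp5g1, which codes for the c subunit of the rotating membrane ring, came closest to the threshold. It stood at 10.16, 9.85 and 9.70 on bleomycin D, E and F, and at 9.40, 9.46 and 9.19 on saline A, B and C. The groups did not overlap, and the difference of 0.55 ± 0.14 had an adjusted p of 0.0697. The same protein is coded by Atp5g2 and Atp5g3, which differed by 0.21 and 0.18.

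The subunits of the catalytic head of ATP synthase did not pass the test. Atp5b, the beta subunit, stood at 11.84, 11.48 and 11.65 on bleomycin D, E and F, and at 11.45, 11.49 and 10.93 on saline A, B and C (0.36 ± 0.17, adjusted p = 0.269). Saline B was just above bleomycin E there. Atp5a1, the alpha subunit, differed by 0.27, but its dimmer probe sets differed by -0.25 and -0.02. Atp5c1, the gamma subunit of the stalk, differed by 0.18. Its dimmer probe set differed by -0.35, with all bleomycin arrays below all saline arrays. Atp5o, the protein that confers sensitivity to oligomycin, differed by 0.37 ± 0.22 (adjusted p = 0.383). The small membrane subunits Atp5md (0.30) and Atp5mpl (0.28) and the delta subunit Atp5d (0.17) were the other complex V genes whose groups did not overlap. In all, 4 of the 17 genes (23.5%) had every bleomycin array above every saline array, beside 13.3% of all genes. Atp5j, coupling factor 6, lay below 0 at -0.05.

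Complex IV, cytochrome c oxidase, which reduces oxygen, had 16 genes with 1 higher and 0 lower in limma. At an unadjusted p of 0.05 in limma, 3 were higher and 0 lower, beside 11.7% and 11.0% of all genes. Complex IV spread the most. Its median was 0.04, and 0.10 without saline B. It was -0.05 with quantile normalization repeated and -0.01 (-0.0053) without bleomycin D, so the median has no settled direction. Of the 16 genes, 5 (31.25%) had every bleomycin array above every saline array and 0 below, beside 13.3% and 14.6% of all genes. They were Cox6b2 and 4 of the 10 genes with no tissue restriction (40%). The 10 genes with no tissue restriction had a median of 0.07, which ran from 0.05 to 0.18 with 1 array left out, and 9 of them lay above 0, but 6 without bleomycin D. The 6 tissue-restricted isoforms had a median of -0.31 and 1 of them lay above 0, namely Cox6b2. That median was -0.11 without bleomycin D, with 2 above 0, and -0.16 without saline C.

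Cox6b2, known as the testis isoform of subunit 6b, rose. It stood at 7.92, 8.14 and 7.86 on bleomycin D, E and F, and at 7.30, 7.40 and 7.22 on saline A, B and C. The groups did not overlap and averaged 7.97 ± 0.15 in bleomycin lungs and 7.30 ± 0.09 in saline lungs (SD, n = 3 each). The rise was 1.59-fold (0.67 ± 0.12 log2 units, limma adjusted p = 0.0185), from a single probe set that is dim beside most members. It passed without bleomycin D (0.70, adjusted p = 0.0382), bleomycin E (0.59, adjusted p = 0.0486) or saline B (0.72, adjusted p = 0.0375). The call was lost with bleomycin F left out (0.73, adjusted p = 0.0504), and likewise with saline A (0.67, adjusted p = 0.0673) or saline C (0.63, adjusted p = 0.0647) left out. Its widely expressed counterpart Cox6b1 stood at 12.40, 12.40 and 12.31 on bleomycin D, E and F, and at 12.05, 12.27 and 12.25 on saline A, B and C. Those groups did not overlap either, with a difference of 0.18 ± 0.11 (adjusted p = 0.387).

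The 250 bases before the annotated start are shown, 5′ to 3′ in the direction of the gene, for the gene that rose, for its widely expressed counterpart, and for Cox5a of complex IV and Atp5j2 of complex V, in each of which 1 probe set rose. Sequences are from RefSeq (GRCm38.p6). Capitals mark CCAAT or its complement ATTGG, the box bound by NF-Y, and CTTCCGG, the complement of the ETS core CCGGAAG.
Cox6b2 (chr7:4753095-4753344, minus strand): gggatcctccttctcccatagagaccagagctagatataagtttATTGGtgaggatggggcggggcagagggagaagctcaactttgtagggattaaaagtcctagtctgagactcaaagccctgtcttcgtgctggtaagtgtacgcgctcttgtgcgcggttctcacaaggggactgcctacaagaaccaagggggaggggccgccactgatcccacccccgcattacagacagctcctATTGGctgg
Cox6b1 (chr7:30626115-30626364, minus strand): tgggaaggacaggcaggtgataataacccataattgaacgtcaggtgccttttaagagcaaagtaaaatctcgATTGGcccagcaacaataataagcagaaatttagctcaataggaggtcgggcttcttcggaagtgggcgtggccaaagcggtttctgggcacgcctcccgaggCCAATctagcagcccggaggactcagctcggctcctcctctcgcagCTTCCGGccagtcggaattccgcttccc
Cox5a (chr9:57520982-57521231, plus strand): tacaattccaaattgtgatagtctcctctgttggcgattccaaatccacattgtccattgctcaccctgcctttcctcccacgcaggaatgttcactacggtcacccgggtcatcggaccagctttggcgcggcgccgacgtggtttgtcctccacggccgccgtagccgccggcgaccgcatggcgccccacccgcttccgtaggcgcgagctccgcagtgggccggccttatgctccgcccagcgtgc
Atp5j2 (chr5:145191542-145191791, minus strand): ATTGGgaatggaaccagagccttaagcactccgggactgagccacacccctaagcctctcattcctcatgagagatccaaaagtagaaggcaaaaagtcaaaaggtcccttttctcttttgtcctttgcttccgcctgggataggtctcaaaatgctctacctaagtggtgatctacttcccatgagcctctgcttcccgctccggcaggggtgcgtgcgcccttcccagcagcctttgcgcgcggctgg
The ETS core stood in the window of Cox6b1 and in no other window shown. CCAAT boxes stood in the windows of Cox6b2, Cox6b1 and Atp5j2, and the window of Cox5a held none of the motifs searched.

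The muscle isoforms of complex IV averaged less in bleomycin lungs than in saline lungs, and none passed the test. Cox6a2, found in heart and skeletal muscle, stood at 8.28, 9.03 and 8.89 on bleomycin D, E and F, and at 8.92, 8.77 and 9.48 on saline A, B and C (-0.32 ± 0.24, adjusted p = 0.477). Cox8b, of heart, muscle and brown fat, stood at 7.08, 7.83 and 7.48 on bleomycin D, E and F, and at 7.75, 7.67 and 7.98 on saline A, B and C (-0.34 ± 0.19, adjusted p = 0.334). Cox7a1, the other heart and muscle isoform, stood at 5.96, 6.51 and 6.14 on bleomycin D, E and F, and at 6.41, 6.42 and 6.67 on saline A, B and C (-0.29 ± 0.16, adjusted p = 0.325). In each of these genes bleomycin D was the lowest array and saline C the highest, and the groups overlapped. With 1 array left out the difference ran from -0.47 to -0.09 for Cox6a2, from -0.52 to -0.15 for Cox8b and from -0.45 to -0.17 for Cox7a1, each smallest in size without bleomycin D. Without saline C that of Cox6a2 was -0.11.

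Cardiac muscle, which sheathes the pulmonary veins of the mouse, moved in the same order at its ends. Of 17 cardiac markers 0 rose and 0 fell, but all 17 lay below 0, with a median of -0.58, which was -0.78 without saline B and -0.38 without bleomycin D. The log2 of their summed signal was 11.97, 12.62 and 12.61 on bleomycin D, E and F, and 13.18, 12.54 and 13.45 on saline A, B and C. Bleomycin D was lowest and saline C highest here as well. Bleomycin D was also the lowest of the 6 arrays in the summed markers of type 2 cells, endothelium and lymphocytes, where saline C was not the highest. Myh6, the atrial myosin heavy chain, stood at 7.19, 7.68 and 8.28 on bleomycin D, E and F, and at 9.45, 8.23 and 9.73 on saline A, B and C, and did not pass the test (-1.42). The part of cardiac muscle content in the values of these isoforms was not tested. In whole tissue, fewer cells of a type and less RNA per cell cannot be told apart. Of 11 markers of skeletal muscle and brown fat 0 rose and 0 fell, with a median of -0.07 (-0.03 without saline B).

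**Figure D3:**
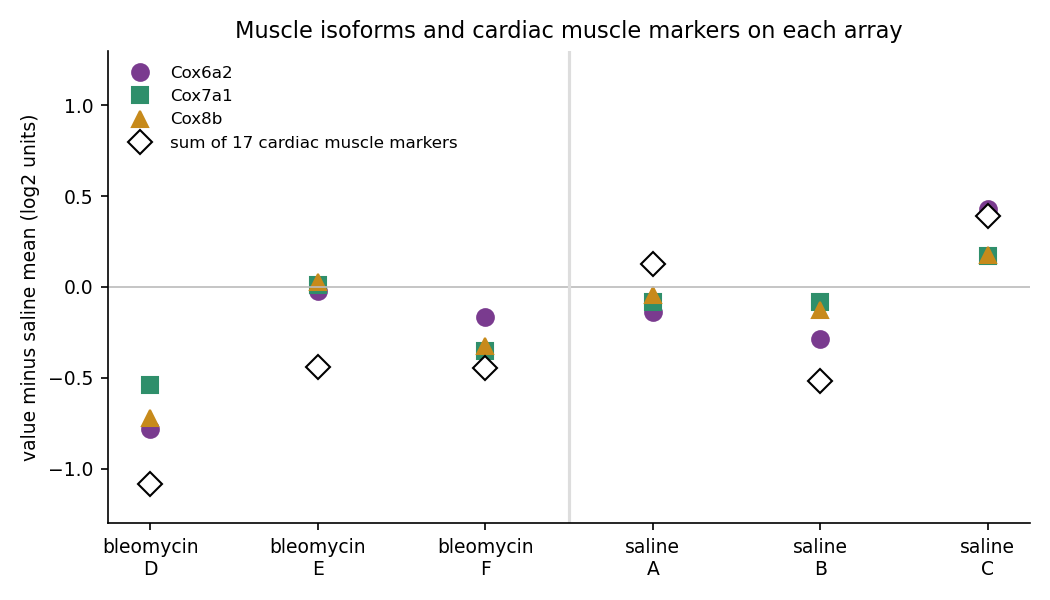
Each mark gives 1 array's value minus the saline mean (log2 units) for the muscle isoforms Cox6a2, Cox7a1 and Cox8b and for the log2 of the summed signal of 17 cardiac markers. Bleomycin D has the lowest and saline C the highest mark in every case.

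Cox4i2, the isoform of subunit 4 found in lung and linked in mouse to the sensing of low oxygen, stood at 7.13, 8.00 and 8.16 on bleomycin D, E and F, and at 8.22, 7.78 and 8.23 on saline A, B and C. Only bleomycin D stood apart, and the difference of -0.32 ± 0.26 (adjusted p = 0.526) became 0.00 (0.0010) without it and -0.52 without bleomycin F. The testis isoform Cox8c differed by -0.09. The widely expressed counterparts differed by 0.34 ± 0.12 for Cox6a1 (adjusted p = 0.153, groups not overlapping), 0.08 for Cox8a, 0.06 for Cox4i1 and 0.02 for Cox7a2. Ndufa4, first assigned to complex I and now counted with complex IV, differed by 0.02. Of the remaining subunits Cox6c differed by 0.23 with groups that did not overlap, Cox5b by 0.06 and Cox7c by -0.24. Cox7c had the lowest mean level of the 87 members, 6.27.

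**Figure D4:**
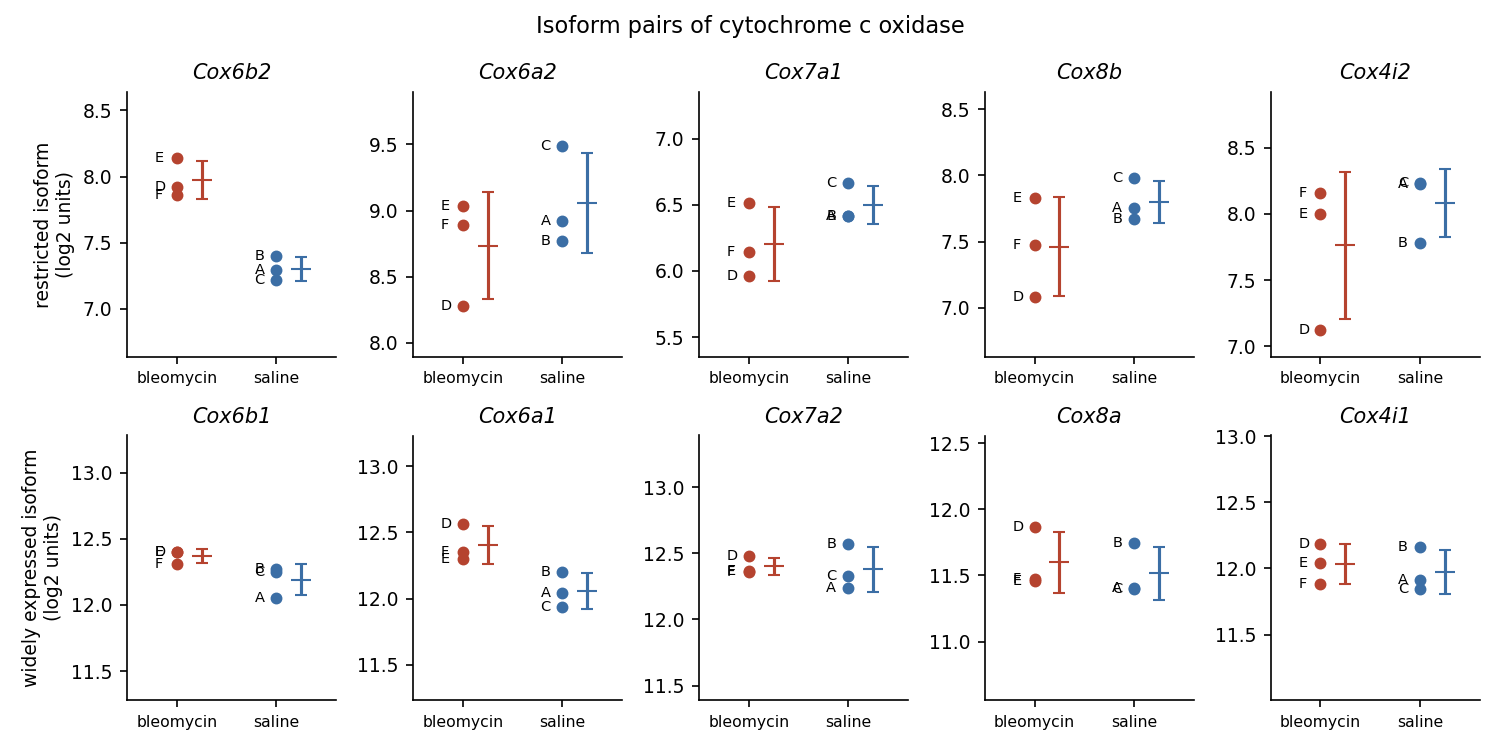
Points are the values on single arrays (log2 units) for restricted isoforms of complex IV in the upper row and their widely expressed counterparts in the lower row, bleomycin left of saline, with the mean and SD beside them. Each panel spans the same number of log2 units. Cox6b2 shows separate groups, and Cox6a2, Cox7a1, Cox8b and Cox4i2 show bleomycin D as the lowest array.

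The choice of probe set decided the call of 2 further genes. Cox5a, a nuclear-coded subunit of complex IV, was read by its brightest probe set at 11.30, 11.66 and 11.44 on bleomycin D, E and F, and at 10.98, 10.78 and 11.26 on saline A, B and C (0.46 ± 0.15, adjusted p = 0.13). A second probe set of nearly the same brightness stood at 11.55, 11.34 and 11.45 on bleomycin D, E and F, and at 10.95, 11.04 and 10.89 on saline A, B and C, and passed (0.48, adjusted p = 0.0421). The remaining one differed by 0.27, and the groups did not overlap in any of the 3. Atp5j2, subunit f of ATP synthase, differed by 0.29 in its brightest probe set (adjusted p = 0.247). Its other probe set stood at 11.08, 11.25 and 11.19 on bleomycin D, E and F, and at 10.67, 10.40 and 10.62 on saline A, B and C, and passed (0.61, adjusted p = 0.0257). With the mean of all probe sets of a gene, Cox5a and Atp5j2 rose by 0.40 and 0.45 (adjusted p = 0.0445 for each) beside Cox6b2, which made 3 genes called.

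**Figure D5:**
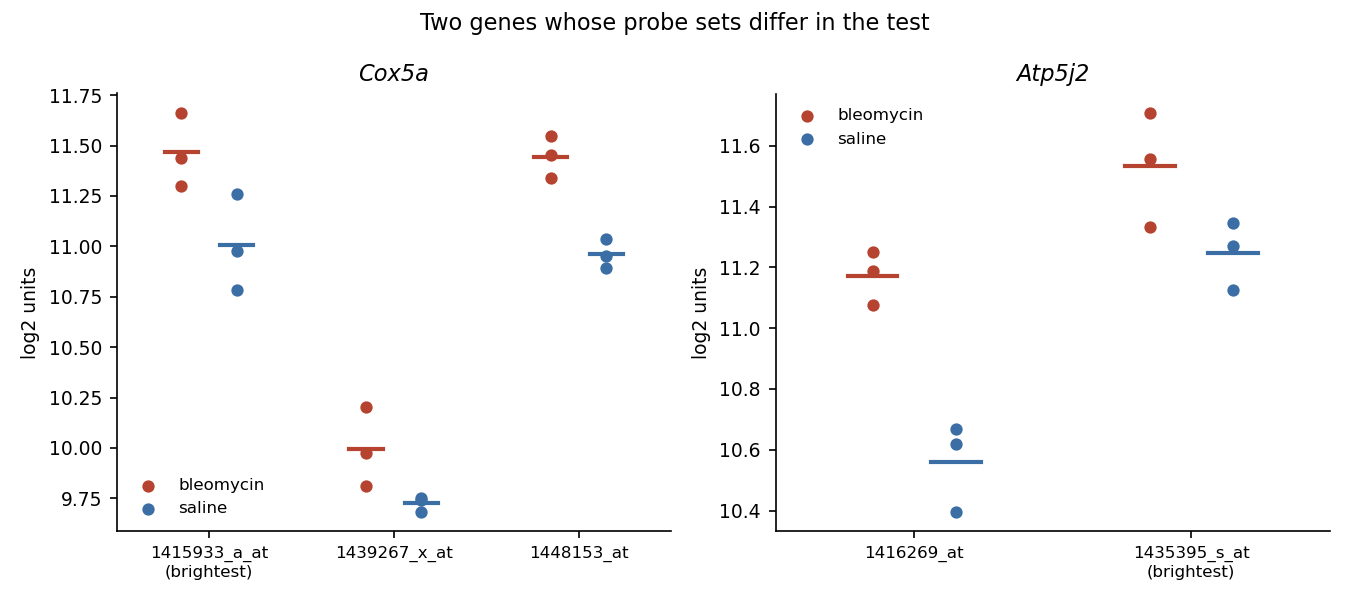
Points are the values on single arrays (log2 units) for each probe set of Cox5a and Atp5j2, bleomycin left of saline, with bars at group means. In each gene the probe set that passed the test is not the brightest one.

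Across the 160 probe sets of the 87 genes, 3 were higher and 0 lower in limma. The share called over all probe sets is not given here, since the 3.70% and 1.90% above are shares of genes. The count is therefore not read as many or few. Several probe sets were present for 46 genes, and in 16 of these they differed in sign. The 16 were Atp5a1, Atp5c1, Cox5b, Cox7a2l, Cox8a, Ndufa12, Ndufab1, Ndufb11, Ndufb9, Ndufs4, Ndufs7, Ndufv1, Sdha, Sdhd, Uqcrc2 and Uqcrq. In some of them the probe sets of the other sign were dim, as in Uqcrq, with means of 6.94, 6.76 and 6.09 beside 9.89. In others both signs came from bright probe sets, as in Uqcrc2 (10.23 and 10.44) and Ndufs7 (10.04 and 10.06). Among the 3099 dimmest genes of the array 28.3% lay above 0, and among the 3098 brightest 54.7%. The small differences of single genes can therefore depend on the probe set and its level, and the sign of a gene with 1 probe set could not be checked in this way.

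Assembly factors, which help to build the complexes or join them into supercomplexes, numbered 9, of which 0 rose or fell in limma. At an unadjusted p of 0.05 in limma, 2 were higher and 0 lower, beside 11.7% and 11.0% of all genes. The median of the 9 factors was 0.10, also without saline B. It was 0.03 without bleomycin F, 0.04 without bleomycin E, 0.06 without saline A, 0.18 without bleomycin D and 0.06 with ribosomal centring. The groups did not overlap for Sdhaf2, which adds the flavin to Sdha (0.34 ± 0.12, adjusted p = 0.148), and for Ndufaf4, an assembly factor of complex I (0.20). These 2 of 9 (22.2%) stood beside 13.3% of all genes with every bleomycin array above every saline array. The complex II assembly factor Sdhaf4 differed by 0.36 and the complex I factor Ndufaf5 by 0.33. Cox7a2l, a factor of supercomplex assembly, differed by -0.12 and Ndufaf3 by -0.09. Outside the chosen symbols, 20 further assembly factors had a median of 0.12, and 0 rose or fell.

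The promoters of the members were searched for motifs of factors known to act on such genes. Of the 87 genes 73 matched the RefSeq table of promoters, with 78 windows of 250 bases before to 50 bases after a start, searched on both strands for 5 motifs, none of which contains another. The NRF1 motif, bound by nuclear respiratory factor 1, stood in 23.1% of the members' windows and in 4.60% of the 32851 windows of all genes, which include non-coding genes. The ETS core CCGGAAG, bound by GABP among others, stood in 25.6% and 8.86%. AAGATGGC, bound by YY1, stood in 11.5% and 2.75%, and TCAAGGTCA, bound by oestrogen-related receptors, in 2.56% and 0.423%. CCAAT stood in 38.5% and 37.4%. A match describes letters only. Genes with a motif and matched genes without it had median differences of 0.22 and 0.16 (0.155) for NRF1, 0.24 and 0.17 for ETS, 0.18 and 0.18 for YY1, 0.30 and 0.18 for the oestrogen-related receptor motif, held by 2 windows, and 0.18 and 0.18 for CCAAT.

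Genes that regulate the building of mitochondria were also measured. Of these 18, 0 rose and 1 fell, with a median of -0.09. The gene that fell was Sirt1, a deacetylase that acts on the coactivator PGC-1alpha. It stood at 6.68, 7.18 and 6.95 on bleomycin D, E and F, and at 7.95, 7.80 and 7.69 on saline A, B and C, with groups that did not overlap (-0.88 ± 0.15, adjusted p = 0.0156, and up to 0.0694 with 1 array left out). Nrf1, which codes for nuclear respiratory factor 1, differed by -0.38 (adjusted p = 0.0879), Gabpa by -0.32 and Ppargc1a, at 5.25 to 5.40 in bleomycin lungs and 5.34 to 5.70 in saline lungs, by -0.16. Hif1a, the oxygen-regulated factor, differed by 0.43 (adjusted p = 0.0787).

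Other groups of mitochondrial genes had medians between 0.03 and 0.26. Of 74 mitochondrial ribosomal proteins 1 rose and 0 fell, 68 lay above 0 and the median was 0.26 (0.31 without saline B). Mrpl42 was the one that rose, 1.45-fold (adjusted p = 0.0392). Of 18 genes of the tricarboxylic acid cycle, which supplies NADH and succinate, 0 rose or fell, with a median of 0.13. Of 13 other electron carriers and quinone-linked enzymes 0 rose or fell, with a median of 0.15 (0.07 without bleomycin D), and cytochrome c, coded by Cycs, differed by 0.18. Of 32 genes of carriers, import and mitochondrial DNA 1 rose, the chaperonin Hspe1, 1.37-fold (adjusted p = 0.0484), and 0 fell, with a median of 0.03 that was 0.11 without saline B. The 48 cytosolic ribosomal protein genes had a median of 0.03, which was also 0.11 without saline B and 0.0019 without bleomycin D, with 1 higher, the paralogue Rps27l, and 0 lower.

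Markers of several cell types changed between the groups. Of 13 macrophage markers 9 rose and 0 fell, with a median of 1.25, and the log2 of their summed signal was 14.76 to 14.84 in bleomycin lungs and 13.35 to 13.72 in saline lungs. Of 14 cell cycle genes 7 rose and 0 fell, with a median of 1.13. The log2 of their summed signal was 12.67 to 13.30 in bleomycin lungs and 11.92 to 12.33 in saline lungs. It was highest on bleomycin D and, among the saline arrays, on B, as was the level of the 87 members. The summed signals of mitochondrial and of cytosolic ribosomal proteins were also highest on D and B within their groups. That of the macrophage markers was highest on bleomycin E and saline C within the groups. Of 6 ciliated cell markers 0 rose and 1 fell, Tppp3, with a median of -0.37 and a log2 summed signal of 11.03 to 11.16 in bleomycin lungs and 11.51 to 12.01 in saline lungs. Of 11 endothelial markers 0 rose and 2 fell, Kdr and Ramp2, with a median of -0.40 (-0.395) that was -0.22 without bleomycin D, and of 6 club cell markers 1 fell, Cyp2f2, with a median of -0.50. Of 10 type 2 cell markers 0 rose or fell, with a median of -0.15 that was -0.07 without bleomycin D. Of 8 lymphocyte markers 0 rose or fell, with a median of -0.16 that was -0.02 (-0.023) without saline B and 0.04 without bleomycin D. Of 13 pericyte and smooth muscle genes 1 rose, Rgs5 (median -0.04). The part of cell content in the members' differences was not tested. Each gene named as risen or fallen from the marker and pathway lists lost its call for at least 1 array left out, with a highest adjusted p between 0.0553 (Rgs5) and 0.146 (Hspe1).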

How the data were processed

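Total RNA of 6 frozen lungs had been hybridised to Affymetrix MOE430A arrays. For each probe set the authors deposited a log2 value, made by RMA with quantiles normalization, per the labels' processing notes and design text. For the RMA version and chip definition, the sources used here state nothing. Scanner files and scan dates were not used here, so background and scan batch were not examined. Arrays have no read depth, and 3 arrays a group limit the precision.

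Of 22690 probe sets, 64 controls were left out and 22626 were tested with limma 3.58.1 (lmFit and eBayes, no covariates) in R 4.3.3, with Benjamini-Hochberg adjustment over all of them and a threshold of 0.05. Gene names are those of GEO's platform annotation. Probe sets with several symbols were left out, which removed 8 that list a member symbol. Of several probe sets of a gene, the one brightest on average was read. The members and lists were chosen with earlier results of these data known. Each group had 3 mice, per the design text, and the letters A to F pair none. No list was tested as a set. The rule for named genes took called members, the 3 largest differences each way in each complex and the isoforms of complex IV with their counterparts. Others were named for their role, for groups that do not overlap, or after their values were seen (Uqcrb, Cox7c, Atp5j2 and the probe sets shown). The rule's search for genes patterned like a called isoform was not used, since the 6 arrays fall into separate groups. The fit was tested on simulated data of 22626 probe sets for this comparison. It called 85 of 100 probe sets shifted by 1 (log2), 99 of 100 shifted by 2, and 11 unshifted ones. The simulated noise was independent between probe sets, with a spread drawn from the fit's own variance prior. No shift shared by the genes of an array was added, so these counts hold for such data only. Smaller shifts were not simulated, so the share called at the size of the members' differences is not known. Figures were drawn with matplotlib 3.10.9. Alternatives were a filter on dim probe sets, another variance prior, array weights, repeated quantile normalization, centring on ribosomal protein genes, the mean of probe sets, a stricter threshold and leaving out each array.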

Additional observations from a re-analysis of the deposited data

How the results depend on the processing

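No paired analysis was possible because the letters of the arrays differ between the groups. The 0 members lower stayed 0 under every alternative run, and the 1 higher stayed 1 under the filter on dim probe sets, the trended robust prior, array weights, repeated quantile normalization and ribosomal centring. It became 3 with the mean of probe sets, 0 at an adjusted p under 0.01, and 0 to 1 with 1 array left out. Among all genes, 458 higher and 236 lower became 143 and 20 at the stricter threshold, and 163 to 385 higher and 22 to 165 lower with 1 array left out, where fewer arrays enter the fit. The median of all 87 members, 0.18, was 0.095 with repeated quantile normalization, and that of assembly factors, 0.10, was 0.23 (0.2253) with array weights. The median of complex IV, 0.04, turned to -0.0508 with repeated quantile normalization and ran from -0.01 (-0.0053) to 0.10 with 1 array left out. The causes of these shifts were not tested.

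Several named genes changed sign, none of them called. The largest turns were Uqcrq, reported at 0.46, and Cox4i2, reported at -0.32. With repeated quantile normalization the differences were -0.0040 for Cox4i1, -0.0625 for Cox7a2 and -0.0693 for Ndufa4. With ribosomal centring they were -0.02 for Cox7a2 (-0.0189) and Ndufa4 (-0.0239), and with array weights -0.02 for Cox7a2 (-0.0156) and -0.0015 for Cox8a. With the mean of probe sets they were 0.0028 for Cox7a2l, -0.0322 for Cox8a, 0.01 for Sdha and -0.0456 for Uqcrq. With 1 array left out the ranges were -0.2174 to 0.0406 for Atp5j, -0.0115 to 0.1570 for Cox4i1, -0.5169 to 0.0010 for Cox4i2, -0.0479 to 0.1161 for Cox7a2, -0.0509 to 0.1988 for Cox8a, -0.12 to 0.27 for Ndufa4 and -0.19 to 0.10 for Ndufaf3. The cause was not tested.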

Other observations

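The array also reads ND5, a complex I subunit coded in mitochondrial DNA, which the symbol rule does not take and which was picked after its values were seen. It stood at 12.49, 12.60 and 12.60 on bleomycin D, E and F, and at 12.67, 12.61 and 12.92 on saline A, B and C. All bleomycin arrays lay below all saline arrays, as for 14.6% of all genes, bleomycin E by a narrow margin to saline B. The difference of -0.17 ± 0.12 (SE) did not pass in limma (adjusted p = 0.444).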
